A study of Mus musculus with 25 samples.

Results

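The collagen genes were taken as every gene of the count table whose symbol has the form Col, a type number, the letter a and a chain number, which gave 44 of 24984 genes. They were 11 genes of fibrillar collagens, 6 genes of the basement membrane collagen type IV and 27 genes of other types. The other types were 9 fibril-associated collagens with interrupted triple helices (FACIT), 6 beaded filament (type VI) chains, 2 multiplexins, 3 short-chain network collagens, 1 anchoring fibril collagen, 4 transmembrane collagens and 2 others, Col26a1 and Col28a1. All 44 had a gene model in the annotation used here for positions and exons.

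BMEL cells are bipotential mouse embryonic liver cells, a clonally derived line from a C57B/6_C3H mouse that was grown on collagen-coated plates. BMEL WT cells, which carry an empty vector in the sample labels, were compared with RasLOW and RasHIGH cells, which carry a lentiviral transgene for the oncogene HRasG12V joined to a fluorescent protein and were sorted by its brightness, with 3 cultures of each. The labels and methods used here name no promoter for the transgene, and the population injected for the sequenced tumours is not given in the labels. BMEL cells carrying the Ras transgene had been injected into the liver of athymic nude mice, hosts that lack a thymus and mature T cells but keep other leukocytes, and 1 liver tumour and 1 peritoneal tumour were taken from each of 4 mice. Dissociated tumours were sorted by green fluorescence into tumour cells and unlabelled stroma, which gave 4 groups of 4 libraries and 25 libraries in 7 groups in all. The ages of the mice are not given in the labels, and tumour number 1 to 4 is the mouse number.

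Collagens are extracellular proteins built of chains in which glycine recurs at a regular spacing along the helical part, so that chains can wind into a triple helix. Fibrillar collagens (types I, II, III, V, XI, XXIV and XXVII) form the banded fibrils of connective tissue and scars, and in the liver types I and III are made mostly by stellate cells and fibroblasts. Type IV forms the flexible sheet of basement membranes, FACIT collagens coat fibrils, type VI forms beaded filaments near cell surfaces, and the multiplexins sit at basement membranes. Procollagen chains are hydroxylated and glycosylated in the endoplasmic reticulum, trimmed and cross-linked outside the cell, bound by integrin and discoidin receptors and cut by matrix metalloproteinases.

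The glycine repeat that makes these genes a family can be read in their coding exons. The exons printed here were chosen because they belong to chains that the results return to (types I, III, V, XII and IV) and show the 54-base exon that fibrillar genes share, and the last shows how type IV differs. They are annotated coding exons, read 5′ to 3′ on the gene's own strand from the NCBIM37 (mm9) genome with the GENCODE vM1 gene models, and capitals mark the first 2 bases of each in-frame glycine codon (GGN).
Col1a1 exon 8 (chr11:94801218-94801271, plus strand): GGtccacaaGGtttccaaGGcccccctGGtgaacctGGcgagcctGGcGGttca
Col1a2 exon 8 (chr6:4465481-4465534, plus strand): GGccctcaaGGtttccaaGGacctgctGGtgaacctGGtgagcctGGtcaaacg
Col3a1 exon 6 (chr1:45382205-45382258, plus strand): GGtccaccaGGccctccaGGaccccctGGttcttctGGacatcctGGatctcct
Col5a2 exon 6 (chr1:45491737-45491790, minus strand): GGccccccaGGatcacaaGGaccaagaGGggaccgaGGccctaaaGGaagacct
Col12a1 exon 55 (chr9:79462156-79462209, minus strand): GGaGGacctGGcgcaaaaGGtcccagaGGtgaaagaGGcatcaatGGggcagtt
Col4a1 exon 7 (chr8:11245211-11245264, minus strand): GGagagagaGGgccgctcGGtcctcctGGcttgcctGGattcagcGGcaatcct
Col4a1 exon 28 (chr8:11222999-11223103, minus strand): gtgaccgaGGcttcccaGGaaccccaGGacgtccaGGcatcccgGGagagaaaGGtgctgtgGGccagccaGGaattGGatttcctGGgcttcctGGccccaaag
In the 54-base exons the reading frame held 18 codons, of which 6 or 7 were glycine codons, and a glycine codon opened each triplet of codons. In exon 28 of Col4a1 the spacing of the capitals changes within the exon, a break of the kind that interrupts the helix of type IV chains.

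Over the whole family, exons of exactly 54 bases made up 305 of the 627 inner coding exons of the 11 fibrillar genes (48.6%), 109 of 413 in the FACIT genes (26.4%) and 12 of 284 in the 6 type IV genes (4.23%), against 469 of 1917 over all 44 genes (24.5%). The longest unbroken run of triplets that open with glycine was 216 to 344 triplets in fibrillar genes and 39 to 66 in type IV genes. The 3 short-chain genes had no inner coding exon. These are descriptions of the gene models and no measurement of these cells.

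**Figure D1:**
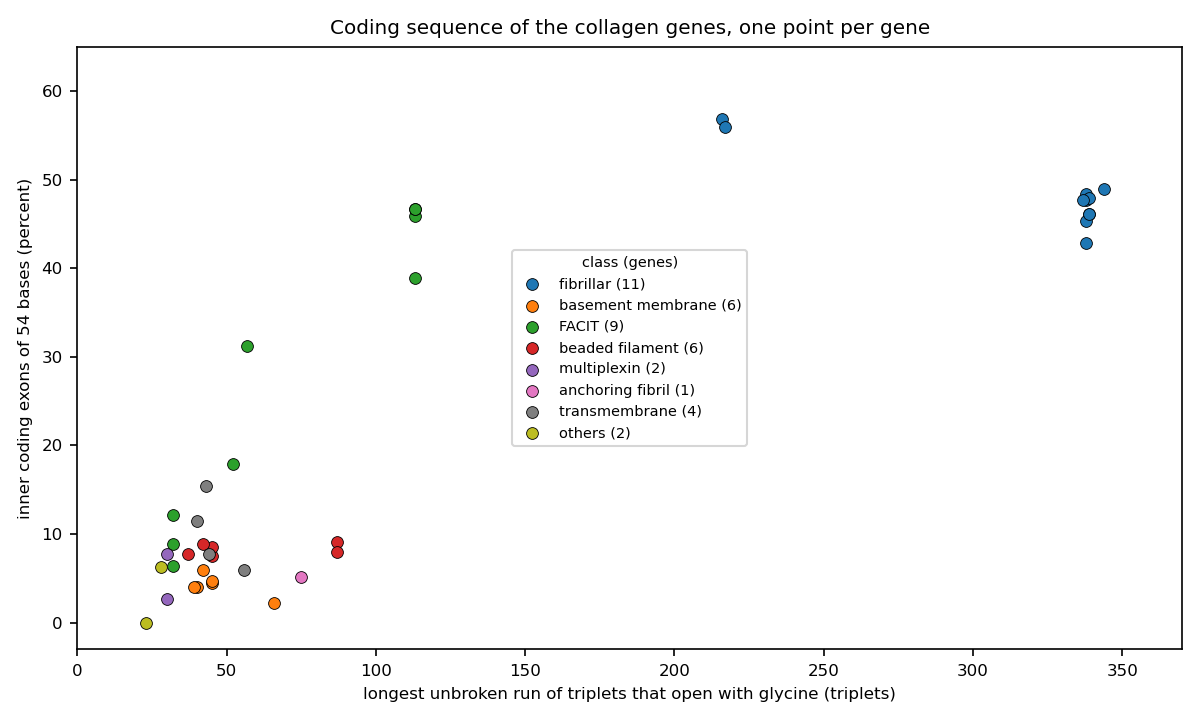
The plot shows, for the 41 collagen genes with inner coding exons, the percent of inner coding exons that are exactly 54 bases long against the longest unbroken run of triplets that open with glycine, with 1 point per gene and colours for the classes. The fibrillar genes lie at runs of 216 to 344 triplets, and the 6 type IV genes lie at 39 to 66.

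Collagen genes also lie side by side. Of the 8 neighbouring pairs of the family on NCBIM37, 3 were type IV pairs placed head to head, Col4a1 with Col4a2 (annotated models overlapping by 22 bases), Col4a4 with Col4a3 and Col4a6 with Col4a5, so that each pair is transcribed in opposite directions from a shared start region. The stretch between the annotated starts of Col4a4 and Col4a3 is shown because both genes had nearly the same values in every BMEL WT library. It is 71 bases long, reads on the plus strand with CG dinucleotides in capitals, and holds 2 of them.
Col4a4 and Col4a3 starts (chr1:82583425-82583495): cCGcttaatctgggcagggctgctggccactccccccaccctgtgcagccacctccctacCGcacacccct

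Total counts ran from about 20819000 to 51241300 per library, and 3 counts corresponded to 0.0576 to 0.141 CPM (counts per 1000000 counts, scaled by TMM over the 25 libraries), which covers counting error only. Correlations within groups lay between 0.965 and 0.995. The summed CPM of the hepatic progenitor markers Krt8, Krt18, Krt19, Epcam and Sox9 was 7778 to 9354 in liver tumour cells and 1117 to 1439 in liver stroma, and 9225 to 10700.5 and 573 to 991 in the peritoneum, with Epcam, a surface marker of these cells, under 1 CPM in every culture and every tumour cell library. The 6 fibroblast markers (Pdgfra, Pdgfrb, Dcn, Lum, Dpt and Thy1) summed to 224 to 405 CPM in liver stroma and 2239.7 to 3849 in peritoneal stroma, and the 5 leukocyte markers to 4529 to 5322 and 3405 to 4675 CPM. The peritoneal tumour cell library of mouse 1 stood apart, with fibroblast markers at 105 CPM against 11.7 to 16.5 in the other 3, and leukocyte markers at 172 against 20.1 to 28.03. Library names give lane 4 for all RasLOW and RasHIGH libraries and for 1 BMEL WT library, and lane 3 for the other 2 BMEL WT libraries, so lane 4 holds too few BMEL WT libraries for a test of Ras cultures against BMEL WT within it, and RasHIGH and RasLOW were compared within 1 lane. The sorted libraries lay in lanes 1 to 3, with every group in each of these lanes.

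Collagen transcripts took 7.63% ± 1.53 (SD, n = 4) of all counts in peritoneal stroma and 1.01% ± 0.269 (SD, n = 4) in liver stroma. They took 0.393% ± 0.0578 in peritoneal and 0.281% ± 0.0217 in liver tumour cells (SD, n = 4 each), and 0.250% ± 0.0288 in BMEL WT, 0.159% ± 0.0234 in RasLOW and 0.207% ± 0.0610 in RasHIGH cultures (SD, n = 3 each). Every peritoneal stroma library (6.08% to 9.03%) lay above every other library of the series. In bulk samples, fewer cells of a type and less RNA per cell cannot be told apart.

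The kind of collagen differed between the groups too. Type IV made up a mean of 71.1% of the collagen counts in BMEL WT cells, 58.96% in RasLOW and 47.5% in RasHIGH cells, while fibrillar genes made up 2.61%, 1.87% and 0.701%. The summed level of type IV was 1646 CPM in BMEL WT, 897 in RasLOW and 909 in RasHIGH, so it was not lower in RasHIGH than in RasLOW. The multiplexin sum was 585 CPM in RasLOW and 1032 in RasHIGH. Multiplexin counts, nearly all from Col18a1, made up 54.3% of the collagen counts in liver tumour cells and 46.8% in peritoneal tumour cells. In stroma the order was turned, with fibrillar genes at 67.8% in liver stroma and 84.8% in peritoneal stroma.

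**Figure D2:**
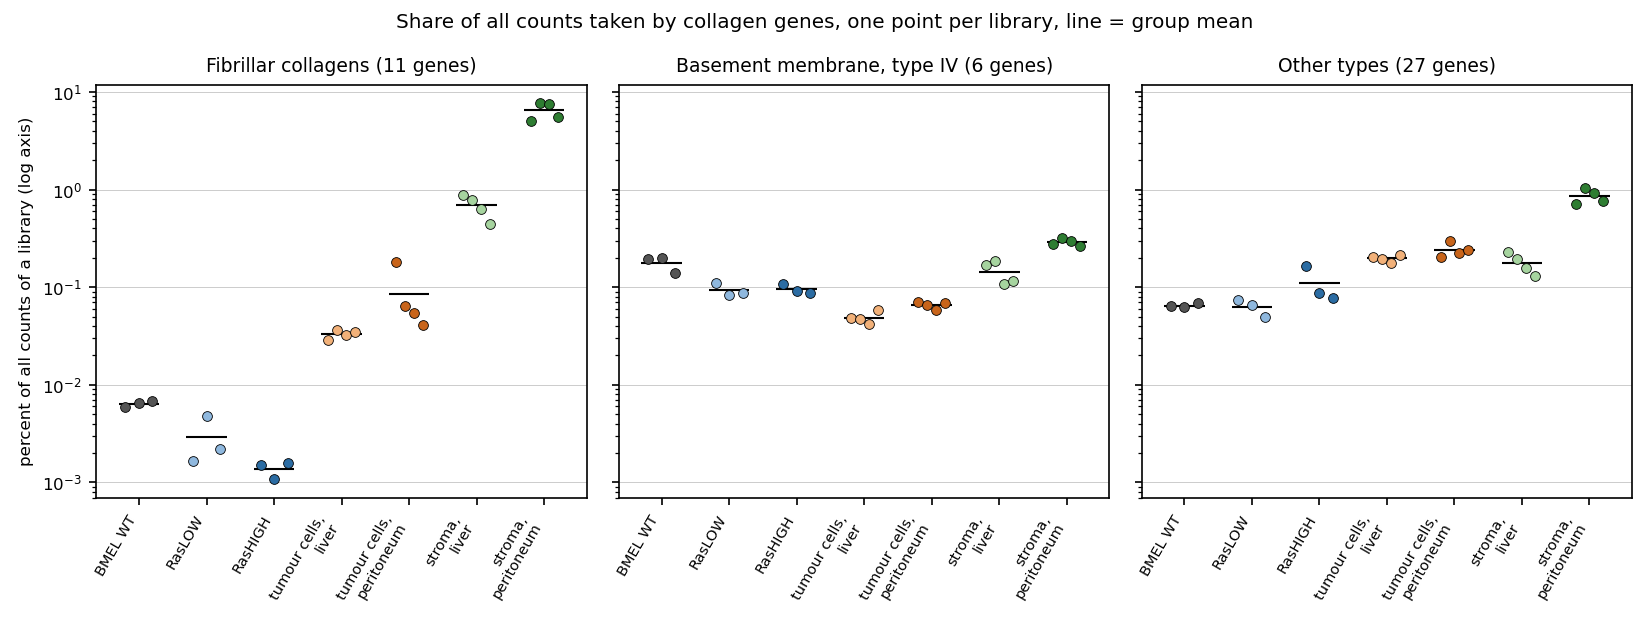
The 3 panels give, on a log axis, the percent of all counts of a library that fell on fibrillar, type IV and other collagen genes in each of the 7 groups, with 1 point per library and a line at the group mean. Fibrillar genes take 6.48% of all counts in peritoneal stroma and 0.689% in liver stroma, and at most 0.179% in any tumour cell library or culture.

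Per kilobase of transcript, the scale on which genes can be set against each other, Col4a1 had the highest level of BMEL WT cells (146 CPM per kb), followed by Col4a2 (99.02) and Col18a1 (87.4). Col18a1 led in RasLOW cells (92.02 CPM per kb, before Col4a1 at 76.4), in RasHIGH cells (162.02), in liver tumour cells (243) and in peritoneal tumour cells (275). In liver stroma Col1a1 led (469 CPM per kb), before Col3a1 (309.9) and Col1a2 (278). In peritoneal stroma Col3a1 came first (5346 CPM per kb), before Col1a1 (3645) and Col1a2 (2434). Of the 44 genes, 31 had their highest group mean in peritoneal stroma and 6 in liver stroma. A mean of 1 CPM or more was reached by 18 of the 44 in BMEL WT, 12 in RasLOW, 10 in RasHIGH, 20 in liver and 24 in peritoneal tumour cells, and by 32 in liver and 37 in peritoneal stroma.

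**Figure D3:**
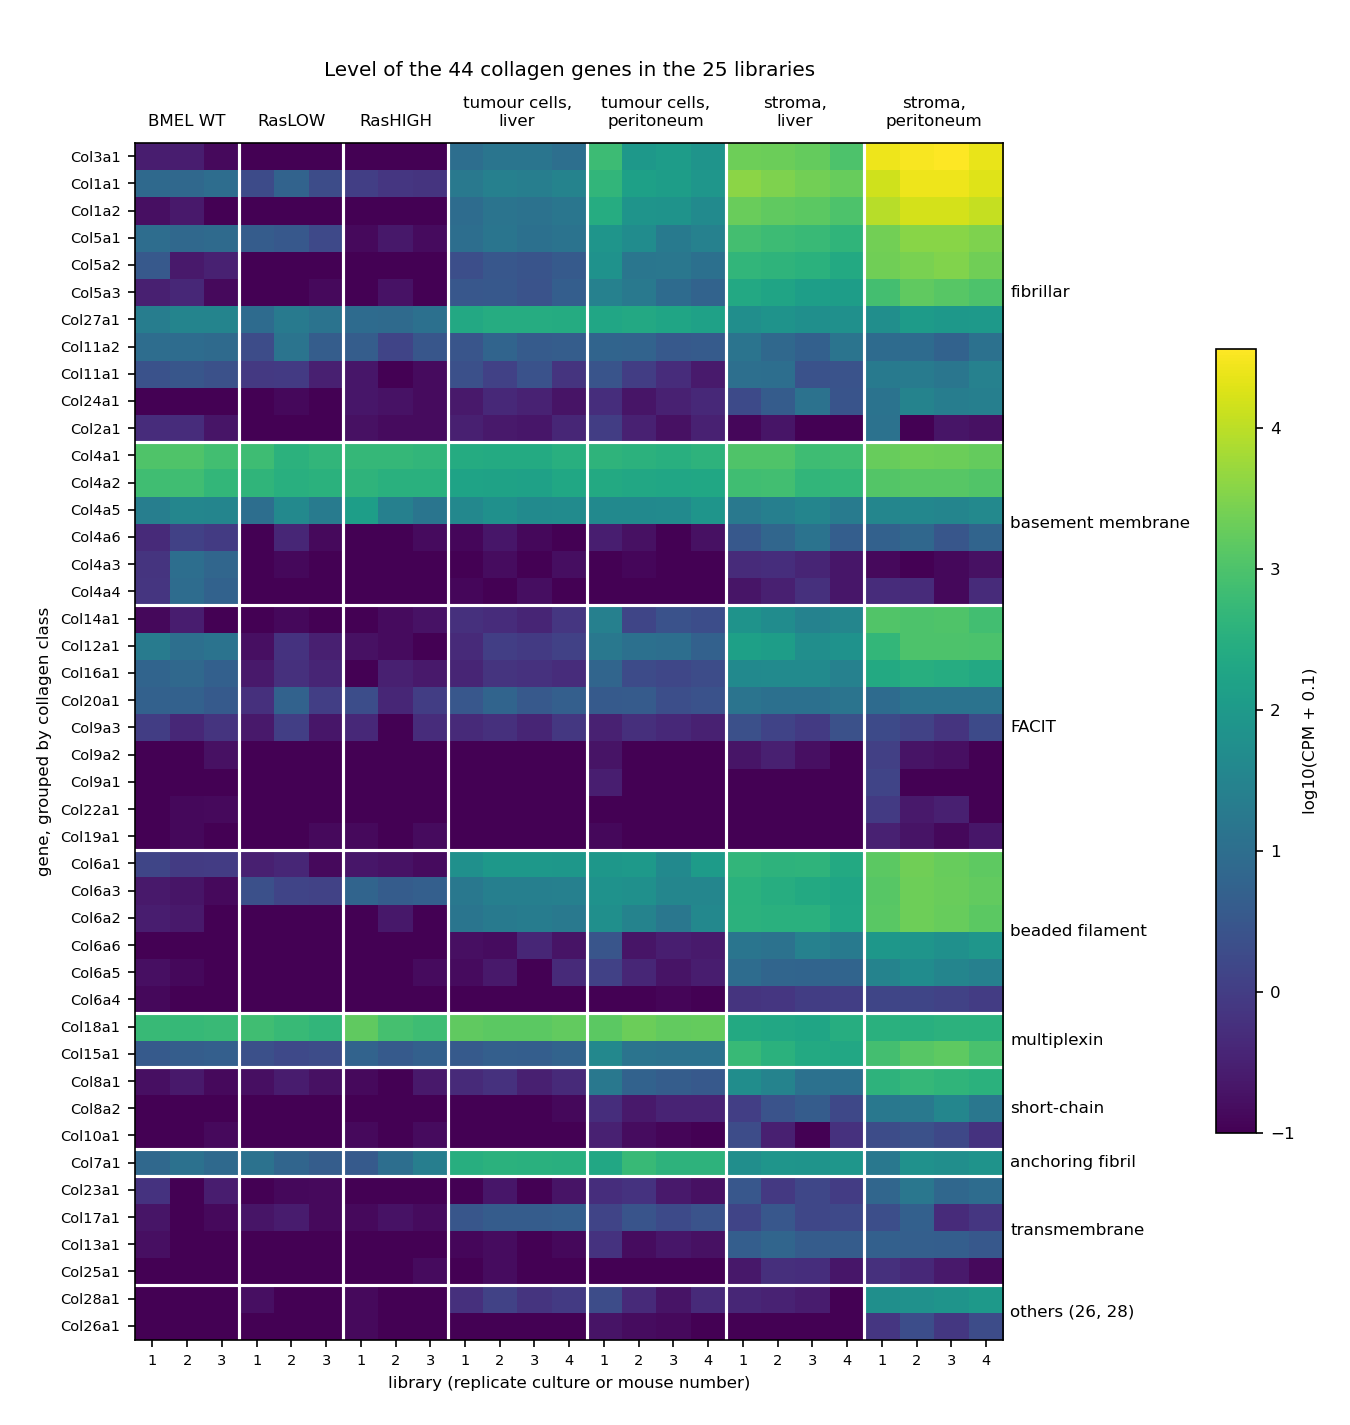
The heat map gives log10 of CPM plus a small constant as colour for each of the 44 collagen genes (rows, by class) in each of the 25 libraries (columns, by group). Col4a1, Col4a2 and Col18a1 are high in every library. The type I, III and V chains and the type VI chains Col6a1, Col6a2 and Col6a3 are high in the 8 stroma libraries and low in the 9 cultures.

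The first question was how collagen genes differ with Ras in cultured cells. In RasLOW against BMEL WT cells, 6 of the 19 collagen genes with enough counts were called at an adjusted p under 0.05 (edgeR's quasi-likelihood test with p adjusted by Benjamini-Hochberg over the whole table, the edgeR test from here on), 1 higher and 5 lower, where 5.96% of all genes tested were called, 1.92% higher and 4.05% lower. In RasHIGH against BMEL WT cells it was 14 of 19, 1 higher and 13 lower, against 22.6% of all genes tested, of which 10.9% were higher and 11.7% lower. The median log2 fold change of the collagen genes tested was -1.11 in RasLOW and -1.70 in RasHIGH, beside 0.01 and -0.02 over all genes. Enough counts in 1 group sufficed for a gene to be tested. Col4a3, Col4a4, Col12a1 and Col16a1 passed through BMEL WT only and could only come out lower, while Col6a3 passed through the Ras cultures only. The counts of calls and the medians depend in part on such genes. Both comparisons use the same 3 BMEL WT cultures, so they are not independent.

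Among the type IV chains, Col4a1 was at 1078, 1077 and 741 CPM in BMEL WT libraries 1 to 3, at 674, 378 and 463 in RasLOW and at 505, 509.9 and 457 in RasHIGH. All 6 Ras cultures lay below all 3 BMEL WT cultures, and the difference passed in RasHIGH (log2 fold change -1.01 ± 0.17 (SE), edgeR's adjusted p = 0.00701) and missed in RasLOW (log2 fold change -0.97 ± 0.24 (SE), edgeR's adjusted p = 0.0628). The BMEL WT library nearest to the Ras cultures is library 3, the only one of lane 4; the part of the lane in the result was not tested. Col4a2, its partner in the most common type IV trimer, was at 725, 718 and 473 CPM in BMEL WT, 428, 327 and 348 in RasLOW and 407, 339.6 and 339.7 in RasHIGH. It was called in RasHIGH (log2 fold change -0.86 ± 0.19 (SE), edgeR's adjusted p = 0.0182), a call lost without BMEL WT library 1 or 2 or RasHIGH library 2 or 3 (edgeR's adjusted p = 0.0626 to 0.0740), and not in RasLOW (edgeR's adjusted p = 0.0566).

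Col4a3 and Col4a4, chains of the type IV network known from kidney glomeruli, fell to few or no counts in Ras cultures. Col4a3 was at 0.593, 10.3 and 6.81 CPM in BMEL WT, 0, 0.0328 and 0 in RasLOW and 0, 0 and 0 in RasHIGH libraries. Col4a4 was at 0.628, 9.16 and 5.37 CPM in BMEL WT and without a count in all 6 Ras cultures. BMEL WT library 1 was low for both genes and libraries 2 and 3 were high. Col4a3, with 1 count in all RasLOW cultures, was 538-fold lower (95% exact interval 87.3 to 19345, counting error only) in RasLOW and, against the floor of 3 counts per library, at least 43.5-fold lower in RasHIGH (edgeR's adjusted p = 0.0201 and 0.0216). Against the same floor Col4a4 was at least 41.6-fold lower in RasLOW and at least 37.3-fold lower in RasHIGH (edgeR's adjusted p = 0.0377 and 0.0201). In RasLOW both calls were lost without BMEL WT library 2 or 3 or RasLOW library 1 or 3 (edgeR's adjusted p = 0.0584 to 0.0875 for Col4a3 and 0.0768 to 0.103 for Col4a4). In RasHIGH the call of Col4a3 was lost without BMEL WT library 2 or 3 or RasHIGH library 2 (edgeR's adjusted p = 0.0524 to 0.0561), and that of Col4a4 without BMEL WT library 3 (edgeR's adjusted p = 0.0524). The third type IV pair did not follow: Col4a5 was at 23.7, 34.7 and 33.04 CPM in BMEL WT, 10.2, 41.9 and 20.7 in RasLOW and 128, 25.7 and 14.02 in RasHIGH, with overlapping groups and no call, and Col4a6 was at 0.349, 1.10 and 0.814 CPM in BMEL WT, 0, 0.295 and 0.0405 in RasLOW and 0, 0 and 0.0451 in RasHIGH, too low to be tested.

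Fibrillar genes were low in BMEL WT cells, and of the 5 tested 1 was called lower in RasLOW and 5 in RasHIGH. Col1a1, the main chain of type I collagen, was at 7.99, 7.30 and 9.69 CPM in BMEL WT, 1.73, 5.77 and 1.82 in RasLOW and 0.985, 0.646 and 0.586 in RasHIGH. The 3 groups did not overlap, and Col1a1 was called in RasHIGH (log2 fold change -3.52 ± 0.29 (SE), edgeR's adjusted p = 0.000569) and not in RasLOW (log2 fold change -1.43 ± 0.50 (SE), edgeR's adjusted p = 0.152), where it was called without RasLOW library 2 (-2.28, edgeR's adjusted p = 0.00423). Col5a1, a chain of type V that nucleates fibrils, was at 9.495, 7.40 and 8.36 CPM in BMEL WT, 3.95, 3.28 and 1.62 in RasLOW and 0.0379, 0.129 and 0.0451 in RasHIGH. It was called in both, 2.85-fold lower in RasLOW (log2 fold change -1.54 ± 0.35 (SE), edgeR's adjusted p = 0.0490) and 119-fold lower (95% exact interval 51.5 to 373, counting error only) in RasHIGH (log2 fold change -6.86 ± 0.42 (SE), edgeR's adjusted p = 0.000205). Without RasHIGH library 2 the RasHIGH value was -7.56. The RasLOW call was lost without any 1 of the libraries other than RasLOW library 2 (edgeR's adjusted p = 0.0670 to 0.155). All 5 fibrillar genes tested in RasHIGH were called lower, the others being Col11a1, Col11a2 and Col27a1 (log2 fold changes -5.47 ± 0.62, -1.70 ± 0.40 and -1.66 ± 0.22, SE), where Col11a1 had one of -6.60 without RasHIGH library 1 and Col11a2 was lost without any BMEL WT library or RasHIGH library 3 (edgeR's adjusted p = 0.0609 to 0.0719). The chains of type III and the second chain of type I, Col3a1 and Col1a2, had no count in any Ras culture and stayed at or under 0.175 CPM in BMEL WT. Col5a2 was at 3.46, 0.138 and 0.222 CPM in BMEL WT libraries 1 to 3 and had no count in Ras cultures, and Col5a3 did not pass 0.310 CPM in any culture.

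Among the fibril-associated genes Col12a1 and Col16a1 were lower with Ras. Col12a1, a FACIT collagen of fibril surfaces, was at 19.97, 10.6 and 13.1 CPM in BMEL WT, 0.0719, 0.558 and 0.203 in RasLOW and 0.0758, 0.0431 and 0 in RasHIGH. No Ras culture came near the BMEL WT range, and both differences were called (in RasLOW log2 fold change -5.68 ± 0.64 (SE), edgeR's adjusted p = 0.00640; in RasHIGH log2 fold change -8.33 ± 0.56 (SE), edgeR's adjusted p = 0.000284). Col16a1, another FACIT collagen, was at 6.21, 7.30 and 5.07 CPM in BMEL WT, 0.144, 0.492 and 0.284 in RasLOW and 0, 0.215 and 0.135 in RasHIGH, again without overlap (log2 fold changes -4.33 ± 0.48 and -5.75 ± 0.66, SE, edgeR's adjusted p = 0.00640 and 0.00166). Without RasLOW library 2 the RasLOW value of Col12a1 was -6.76 and without RasHIGH library 1 its RasHIGH value was -9.10, while the RasHIGH value of Col16a1 was -5.12 without RasHIGH library 1 and -6.55 without library 2. The fibroblast markers summed to at most 0.593 CPM in BMEL WT and 0.676 in Ras cultures, so the defining markers of fibroblasts were at or near 0 in all 9 cultures. The smooth muscle markers Acta2, Tagln and Myh11 summed to 12.7, 3.20 and 0.592 CPM in BMEL WT and to at most 0.361 in Ras cultures, and their part in the result was not tested.

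Col6a3 was the exception. This chain of type VI, whose trimer also needs Col6a1 and Col6a2, was at 0.140, 0.103 and 0.0370 CPM in BMEL WT, 2.16, 1.28 and 1.13 in RasLOW and 5.99, 4.09 and 4.78 in RasHIGH. The 3 groups did not overlap, and Col6a3 was called higher in RasLOW (log2 fold change 3.92 ± 0.57 (SE), edgeR's adjusted p = 0.0133) and in RasHIGH (log2 fold change 5.61 ± 0.44 (SE), edgeR's adjusted p = 0.000500). Without BMEL WT library 2 or 3 the RasLOW call was lost (edgeR's adjusted p = 0.0584 to 0.0692). Its partner Col6a1 moved the other way, from 1.36, 0.827 and 0.851 CPM in BMEL WT to 0.216, 0.295 and 0.0405 in RasLOW and 0.114, 0.0861 and 0.0451 in RasHIGH, a call in RasHIGH only (log2 fold change -3.57 ± 0.50 (SE), edgeR's adjusted p = 0.00350), and Col6a2 stayed at or under 0.175 CPM in every culture. Of the multiplexins, Col18a1, the source of the fragment endostatin, was at 553, 535 and 574 CPM in BMEL WT, 731, 563 and 456 in RasLOW and 1575, 812 and 693 in RasHIGH (RasHIGH: log2 fold change 0.84 ± 0.29 (SE), edgeR's adjusted p = 0.0785). All 3 RasHIGH values were above BMEL WT, library 1 being the highest, and the difference was not called.

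Between RasHIGH and RasLOW cells the edgeR test called none of the 12 collagen genes tested and 0.0752% of all genes tested (0.0585% higher and 0.0167% lower). At an unadjusted p under 0.05 there were 5, Col6a3, Col15a1 and Col18a1 higher and Col5a1 and Col1a1 lower in RasHIGH, and DESeq2 called 4 (Col6a3, Col15a1, Col1a1 and Col5a1), beside 414 over all genes. The study's thresholds, which ask for a log2 fold change beyond 1.5 either way with an unadjusted p under 0.01, gave 3, beside 2.12% of all genes tested. The steepest difference was that of Col5a1, whose values given above did not overlap (log2 fold change -5.30 ± 0.64 (SE), edgeR's adjusted p = 0.0683). The median log2 fold change of the 12 genes was -0.03, beside -0.03 over all genes.

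Tumour cells differed from the same kind of cells in culture, which is described here without a test because tumour cells were dissociated and sorted before RNA was taken, a step that the cultures did not share. Of the 44 collagen genes, 17 were higher in all 8 tumour cell libraries than in all 6 Ras cultures and 1, Col4a2, was lower in all 8, while over all 19384 genes with a count 11.3% were higher and 9.56% lower without overlap. Col7a1, the collagen of anchoring fibrils that tie epithelium to stroma, ran from 3.71 to 23.3 CPM in Ras cultures and from 219 to 545 in tumour cells. Col27a1, a fibrillar collagen known from cartilage, ran from 8.09 to 19.1 CPM in culture and from 153 to 283 in tumour cells. Col6a1 ran from 0.0405 to 0.295 CPM in culture and from 43.1 to 114 in tumour cells. For these 3 genes the lowest tumour cell library lay far above the highest Ras culture. Others among the 17 were Col1a1, at 0.586 to 5.77 CPM in culture and 17.4 to 451 in tumour cells, and Col6a3, at 1.13 to 5.99 CPM in culture and 16.97 to 69.7 in tumour cells. Col4a2 lay the other way, between 327 and 428 CPM in culture and between 154 and 242 CPM in tumour cells. The tumour cell fraction also held fibroblast markers, at 4.36 to 6.37 CPM in the liver and 11.7 to 105 in the peritoneum, and their part in the result was not tested.

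The next question was which compartment of a tumour carries which collagen transcripts. In liver tumours all 34 collagen genes tested were called between stroma and tumour cells, 28 higher in stroma and 6 higher in tumour cells, where 77.8% of all genes tested were called (39.4% higher and 38.4% lower in stroma). In peritoneal tumours it was 35 of 36, 31 higher in stroma and 4 higher in tumour cells, against 76.6% of all genes tested (37.1% higher and 39.5% lower). The median log2 fold change of the collagen genes tested was 5.26 in the liver and 5.60 in the peritoneum, beside -0.0036 and -0.07 over all genes. With Col6a4, which had no count in liver tumour cells, set to its bound, the liver median was 4.79. With RLE in place of TMM scaling, the median over all genes in the peritoneum moved from -0.07 to 0.07.

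Types I and III set the scale. Col1a1 was at 3843, 2979.5, 2425 and 1866 CPM in the liver stroma of mice 1 to 4 and 17.4, 25.8, 23.7 and 29.95 CPM in their liver tumour cells, 115-fold higher in stroma (log2 fold change 6.87 ± 0.28 (SE), edgeR's adjusted p = 6.93e-10). In the peritoneum it was at 14217, 26137, 26473 and 19629 CPM in stroma and 451, 143, 127 and 82.98 CPM in tumour cells, 107.7-fold higher in stroma. The lowest stroma library lay above the highest tumour cell library at both sites. Col1a2, the second chain of type I, was at 1899, 1582, 1437 and 1024 CPM in liver stroma and 8.96, 13.5, 12.6 and 15.2 in liver tumour cells, and at 9166, 15905, 15501 and 11485 CPM in peritoneal stroma and 278, 75.03, 70.4 and 45.1 in peritoneal tumour cells. Col3a1 was at 2135, 1992, 1765 and 1006 CPM in liver stroma and 10.3, 14.2, 14.7 and 10.8 in liver tumour cells, and at 26486, 32691, 36176 and 23624 CPM in peritoneal stroma and 650.5, 91.2, 115 and 74.8 in peritoneal tumour cells (log2 fold change 6.93 ± 0.87 (SE), edgeR's adjusted p = 0.000105 in the peritoneum). The peritoneal tumour cell library of mouse 1 was the highest for all 3, and without it the peritoneal log2 fold changes of Col1a1, Col1a2 and Col3a1 were 7.54, 7.70 and 8.33 in place of 6.68, 6.73 and 6.93. Leaving it out moved the peritoneal difference of 15 collagen genes by over 1.5 times, each to a larger difference. These 3 genes had their highest values of the whole series in peritoneal stroma.

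Type V, which co-assembles with type I, followed at a lower level. Col5a1 was at 794, 635, 585 and 438 CPM in liver stroma and 10.2, 14.4, 11.4 and 13.2 in liver tumour cells, and at 2362, 3770.1, 3644 and 3020.5 CPM in peritoneal stroma and 77.3, 50.5, 18.4 and 27.1 in peritoneal tumour cells. Col5a2 was at 452, 415, 355 and 240.5 CPM in liver stroma and 2.03, 3.11, 2.70 and 3.58 in liver tumour cells, and at 2224, 2821, 3194 and 2205 CPM in peritoneal stroma and 69.2, 15.4, 15.6 and 11.4 in peritoneal tumour cells. Col5a3 was at 229, 173, 129.9 and 122 CPM in liver stroma and 3.17, 3.36, 2.57 and 4.45 in liver tumour cells, and at 792, 1559, 1331 and 1005 CPM in peritoneal stroma and 27.7, 17.7, 8.70 and 5.76 in peritoneal tumour cells. The groups did not overlap for any of the 3 chains at either site, with log2 fold changes between 5.63 and 7.04, and without the peritoneal tumour cells of mouse 1 the peritoneal value of Col5a2 was 7.55 in place of 6.48.

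Expressed as a percentage of the stroma level of the same mouse and site, the tumour cell level of these chains lay near that of the fibroblast markers. The median over mice was 0.921% in the liver and 0.512% in the peritoneum for Col1a1 and 0.774% and 0.317% for Col3a1, while the median over the fibroblast markers was 0.865% and 0.459% and over the leukocyte markers 0.369% and 0.452%. What part of the tumour cell level comes from stromal cells left in the sort was not tested. Col4a1 (31.4% and 19.8%) and Col6a1 (22.99% and 5.40%) lay above the median of the fibroblast markers at both sites. The median over the endothelial markers was 0.920% and 2.64%, with Cdh5 highest at 58.2% and 100.2%, above Col4a1. Over the stellate cell or pericyte markers it was 2.81% and 2.58%, with Rgs5 highest at 63.2% and 6.95%, above Col6a1. Single markers of other stromal cells thus lay above these chains. The stroma fraction in turn held hepatic progenitor markers, which were at a median of 668% in liver and 1391% in peritoneal tumour cells on the same scale.

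**Figure D4:**
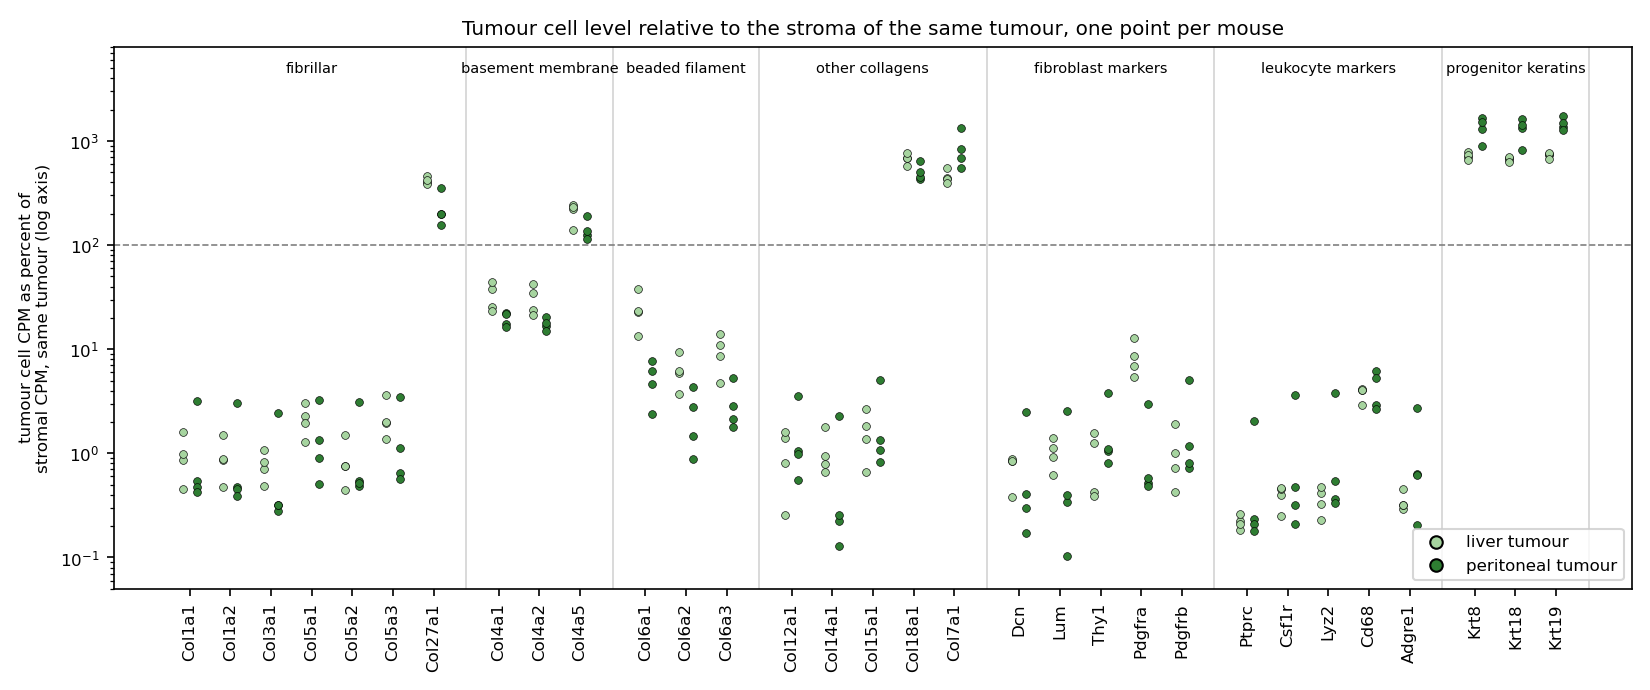
The plot gives, on a log axis, the tumour cell level as a percent of the stroma level of the same mouse and site for selected collagen genes and for fibroblast, leukocyte and progenitor keratin markers, with 1 point per mouse, light for the liver and dark for the peritoneum. Type I and III chains lie in the range of the fibroblast markers, and all points of Col18a1, Col7a1, Col27a1 and Col4a5 lie above the dashed line at 100%, where both compartments are equal.

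A small set of collagen genes was higher in tumour cells. Col18a1 was at 1621, 1463, 1443 and 1642 CPM in liver tumour cells and 236, 215, 189 and 287 in liver stroma (log2 fold change -2.71 ± 0.13 (SE), edgeR's adjusted p = 3.81e-09), and at 1449, 2091, 1677 and 1761 CPM in peritoneal tumour cells and 336, 325, 371 and 346 in peritoneal stroma (log2 fold change -2.41 ± 0.12 (SE), edgeR's adjusted p = 1.17e-06). Col7a1 was at 309.7, 354, 335 and 328 CPM in liver tumour cells and 56.9, 80.6, 76.9 and 82.6 in liver stroma, and at 219, 545, 391 and 388 CPM in peritoneal tumour cells and 16.5, 65.3, 56.5 and 70.8 in peritoneal stroma. Col27a1 was at 229, 283, 278 and 261 CPM in liver tumour cells and 56.5, 72.9, 60.02 and 62.2 in liver stroma, and at 193, 222, 181 and 153 CPM in peritoneal tumour cells and 54.5, 112, 91.5 and 98.3 in peritoneal stroma. For these 3 genes every tumour cell library lay above every stroma library of its site, with log2 fold changes of -2.13 ± 0.12 and -2.95 ± 0.47 (SE) for Col7a1 and -2.04 ± 0.10 and -1.14 ± 0.22 for Col27a1. Col4a5, an X-linked type IV chain, was at 38.6, 61.6, 45.7 and 47.7 CPM in liver tumour cells and 17.2, 25.2, 32.97 and 20.3 in liver stroma, and at 43.7, 42.99, 45.8 and 77.4 CPM in peritoneal tumour cells and 35.2, 37.4, 33.7 and 40.4 in peritoneal stroma. Its peritoneal call (edgeR's adjusted p = 0.0228) was lost in 5 of the other fits, among them DESeq2. Col17a1, a transmembrane collagen of hemidesmosomes, was called higher in tumour cells in the liver (log2 fold change -1.04 ± 0.30 (SE), edgeR's adjusted p = 0.00747) and not called in the peritoneum (log2 fold change -0.11 ± 0.71 (SE), edgeR's adjusted p = 0.891), with overlapping groups at both sites.

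Type IV and type VI chains were present in both compartments. Col4a1 was at 1067, 1077, 674 and 721 CPM in liver stroma and 269, 253, 253 and 322 in liver tumour cells (3.22-fold higher in stroma), and at 1817, 2099, 2006 and 1762 CPM in peritoneal stroma and 408, 369, 326 and 388 in peritoneal tumour cells (5.15-fold higher). Col4a2 was at 709.6, 737, 445 and 491 CPM in liver stroma and 169, 158, 154 and 209 in liver tumour cells, and at 1185, 1310.4, 1312 and 1139 CPM in peritoneal stroma and 242, 217, 196 and 206 in peritoneal tumour cells. Both were called at both sites, with smaller differences than the type I and III chains. Col6a1 was at 454, 401, 404 and 238 CPM in liver stroma and 60.7, 91.4, 93.8 and 89.5 in liver tumour cells, and at 1425, 2223, 1817 and 1499 CPM in peritoneal stroma and 87.8, 103, 43.1 and 114 in peritoneal tumour cells. Col6a2 was at 381, 331, 341 and 191 CPM in liver stroma and 14.1, 19.5, 21.3 and 17.9 in liver tumour cells, and at 1362, 2129, 1805 and 1429 CPM in peritoneal stroma and 59.3, 31.01, 16.1 and 39.8 in peritoneal tumour cells. Col6a3 was at 359, 292, 235 and 189 CPM in liver stroma and 16.97, 25.2, 25.6 and 26.7 in liver tumour cells, and at 1321, 2173, 1969 and 1671 CPM in peritoneal stroma and 69.7, 61.5, 35.2 and 35.7 in peritoneal tumour cells. All 3 were called higher in stroma at both sites, Col6a1 by 4.47-fold and 20.01-fold.

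Several genes with low levels were found almost only in stroma, and those with the largest fitted differences in the liver were Col6a4, Col8a2, Col4a6 and Col13a1. Col6a4 was at 0.577, 0.666, 0.922 and 0.992 CPM in liver stroma with no count in liver tumour cells, at least 8.22-fold higher in stroma, and at 1.38, 1.36, 1.14 and 0.853 CPM in peritoneal stroma with 1 count in 1 peritoneal tumour cell library. Col8a2, a network collagen of Descemet's membrane, was at 0.971, 2.49, 3.96 and 1.47 CPM in liver stroma, 278-fold higher (95% exact interval 55.02 to 12262, counting error only), and 16.7, 17.2, 35.9 and 15.98 in peritoneal stroma, against at most 0.0320 and 0.437 CPM in the tumour cells of these sites. Col4a6 was at 3.25, 6.70, 13.2 and 4.52 CPM in liver stroma and 5.12, 7.08, 3.05 and 6.13 in peritoneal stroma, against at most 0.113 and 0.187 in tumour cells. Col13a1, a transmembrane collagen, was at 4.51, 6.28, 3.96 and 4.05 CPM in liver stroma and 4.97, 4.64, 4.50 and 3.26 in peritoneal stroma, against at most 0.0565 and 0.562 in tumour cells. Every stroma value of these 4 genes was above every tumour cell value of its site.

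The stroma of the 2 sites differed in most collagen genes. In peritoneal against liver stroma 26 of the 36 collagen genes tested were called, all 26 higher in the peritoneum, where 33.4% of all genes tested were called, 18.5% higher and 14.9% lower. The median log2 fold change of the collagen genes tested was 2.22, beside -0.02 over all genes. The summed level was 9.91-fold higher for fibrillar genes, 2.12-fold for type IV and 5.10-fold for the other types. With the mouse as a block 27 were called, Col27a1 being the gene added.

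Of 10 fibrillar genes tested 8 were called higher, of 5 FACIT genes 3, of 6 type VI genes 5 and of 3 short-chain genes 2, and none was called lower. The log2 fold change was above 0 in 9 of these fibrillar, 3 of the FACIT, 6 of the type VI and 3 of the short-chain genes. Col3a1, whose values by mouse are given above, was 17.2-fold higher (log2 fold change 4.15 ± 0.27 (SE), edgeR's adjusted p = 6.01e-06), Col1a1 7.78-fold higher (log2 fold change 3.004 ± 0.28 (SE), edgeR's adjusted p = 3.99e-05) and Col1a2 8.76-fold higher. Every peritoneal library of these 3 genes lay above every liver library. Col14a1, a FACIT collagen of fibril surfaces, was at 1114, 1025, 1045 and 747 CPM in peritoneal and 73.1, 50.3, 29.00 and 35.8 CPM in liver stroma (log2 fold change 4.43 ± 0.30 (SE), edgeR's adjusted p = 7.61e-06). Col12a1 was at 486, 1029, 1018 and 943 CPM in peritoneal and 144, 124, 55.9 and 67.7 in liver stroma, and Col16a1 was at 236, 312, 270.0 and 231 CPM in peritoneal and 44.2, 45.2, 45.1 and 28.05 in liver stroma. Col8a1, a short-chain collagen of vessel walls, was at 395, 513, 423 and 351 CPM in peritoneal and 53.2, 30.03, 11.9 and 11.4 in liver stroma (log2 fold change 4.02 ± 0.49 (SE), edgeR's adjusted p = 0.000238). The log2 fold change of Col8a1 was 4.61 without the liver stroma of mouse 1. The type VI chains Col6a1, Col6a2 and Col6a3 rose by log2 fold changes of 2.26 ± 0.22, 2.48 ± 0.23 and 2.78 ± 0.23 (SE). The type V chains rose by log2 fold changes of 2.43 ± 0.21, 2.88 ± 0.22 and 2.88 ± 0.27 for Col5a1, Col5a2 and Col5a3.

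The largest fitted difference was in a gene of low level. Col28a1, a type VI-like collagen known from peripheral nerve, was at 59.8, 66.1, 73.6 and 97.2 CPM in peritoneal stroma and 0.289, 0.246, 0.171 and 0 CPM in liver stroma, 421-fold higher in the peritoneum (log2 fold change 8.63 ± 0.36 (SE), edgeR's adjusted p = 8.80e-07). It was also present in tumour cells, at 0.479, 1.16, 0.576 and 0.800 CPM in the liver and 1.87, 0.353, 0.0960 and 0.369 CPM in the peritoneum, so that it was higher in tumour cells than in stroma in the liver (log2 fold change -1.97 ± 0.57 (SE), edgeR's adjusted p = 0.00745) and higher in stroma in the peritoneum (log2 fold change 6.79 ± 0.70 (SE), edgeR's adjusted p = 3.38e-05, or 8.23 without the tumour cells of mouse 1). Col26a1 was at 0.672, 1.97, 0.693 and 1.82 CPM in peritoneal stroma with no count in liver stroma, at least 10.8-fold higher (edgeR's adjusted p = 0.00114). Type IV rose less, Col4a1 by 2.17-fold and Col4a2 by 2.08-fold, and Col18a1 by 1.49-fold. Of the 10 genes not called, Col7a1 was at 16.5, 65.3, 56.5 and 70.8 CPM in peritoneal and 56.9, 80.6, 76.9 and 82.6 in liver stroma, Col13a1 had a log2 fold change of -0.07 ± 0.21 (SE) and Col4a6 one of -0.32 ± 0.42.

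The fibroblast markers moved with these genes. All 6 of 6 were called higher in peritoneal stroma, with a median log2 fold change of 3.45, and their sum was 3769, 3849, 3563 and 2239.7 CPM in peritoneal and 405, 385, 358 and 224 CPM in liver stroma of mice 1 to 4, a 9.78-fold difference. The sum of Col1a1, Col1a2 and Col3a1 over the fibroblast marker sum was 17.4 ± 1.55 in liver and 19.8 ± 4.81 in peritoneal stroma (SD, n = 4), with overlapping ranges of 15.7 to 19.5 and 13.2 to 24.4. The leukocyte markers summed to 4675, 3405, 4232 and 4264 CPM in peritoneal and 4942, 4529, 5322 and 4887 in liver stroma. The summed smooth muscle markers were 3.48-fold and the summed stellate cell or pericyte markers 3.32-fold higher in the peritoneum, and the summed endothelial markers were 1.65-fold lower. Of 4 stellate cell or pericyte markers tested 2 were called higher and 1 lower, beside 18.5% and 14.9% of all genes tested. Hepatocyte markers were at 23.5 to 202 CPM in liver stroma and 0.375 to 1.61 CPM in peritoneal stroma, and mesothelial markers at 73.02 to 152 and 102 to 132 CPM. The mesothelial sum includes Msln, which in tumour cells was at a median of 445% of the stroma level in the liver and 1023% in the peritoneum. Of the 4 mesothelial markers tested 1 was called higher and 0 lower in peritoneal stroma, with a median log2 fold change of -0.37. The part of the cell mixture in the result was not tested.

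In peritoneal against liver tumour cells 12 of the 26 collagen genes tested were called, all 12 higher in the peritoneum, where 3.20% of all genes tested were called (1.87% higher and 1.33% lower). The median log2 fold change of the collagen genes was 0.73, beside 0.01 over all genes. With the mouse as a block only 2 of the 12 were called, Col12a1 (log2 fold change 3.69, adjusted p = 0.0360) and Col8a1 (4.16, adjusted p = 0.0223), and the other 10 had adjusted p from 0.0554 to 0.114 and the same direction. Without the peritoneal library of mouse 1, which stood apart in fibroblast and leukocyte markers, 13 genes were called, and without the liver tumour cell library of mouse 1, 2, 3 or 4 the count was 7, 2, 5 or 3.

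Col12a1 was at 17.1, 10.9, 10.1 and 5.20 CPM in the peritoneal and 0.365, 0.989, 0.788 and 1.09 CPM in the liver tumour cells of mice 1 to 4 (log2 fold change 3.77 ± 0.42 (SE), edgeR's adjusted p = 0.00405; without the peritoneal library of mouse 1, 3.46). Col8a1 was at 16.9, 5.46, 4.19 and 3.51 CPM in peritoneal and 0.365, 0.509, 0.212 and 0.352 in liver tumour cells (log2 fold change 4.39 ± 0.57 (SE), edgeR's adjusted p = 0.00765; without that library, 3.59). Col3a1, whose values are given above, had a log2 fold change of 4.24 ± 0.70 (SE) and one of 2.91 without that library. Every peritoneal library of these 3 genes lay above every liver library, also without mouse 1. Col5a2, Col1a2 and Col1a1 had log2 fold changes of 3.31 ± 0.58, 3.24 ± 0.53 and 3.07 ± 0.49 (SE), which became 2.32, 2.34 and 2.28 without that library. Without the liver tumour cells of mouse 2 or 4 the calls of Col3a1, Col1a1 and Col1a2 were lost, and that of Col5a2 without those of mouse 2, 3 or 4 (edgeR's adjusted p = 0.0520 to 0.0836). Of the genes that set tumour cells apart from stroma, Col18a1 (log2 fold change 0.18 ± 0.10 (SE), edgeR's adjusted p = 0.354) and Col7a1 (log2 fold change 0.22 ± 0.21 (SE), edgeR's adjusted p = 0.593) were not called, nor was Col27a1 (log2 fold change -0.48 ± 0.11 (SE), edgeR's adjusted p = 0.0514), which without the library of mouse 1 was called lower in the peritoneum (-0.50, adjusted p = 0.0391). Col27a1 was also called lower with all libraries by DESeq2 and without the filter on low counts. The same held without the liver tumour cells of mouse 1 or the peritoneal tumour cells of mouse 2. It was not called with RLE scaling, in the fit of all libraries or with the mouse as a block.

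The fibroblast markers also differed between the sites in the sorted tumour cells, with 4 of 6 called higher in the peritoneum and a sum of 105, 13.04, 16.5 and 11.7 CPM in peritoneal and 4.36, 5.57, 6.09 and 6.37 CPM in liver tumour cells. The sum of Col1a1, Col1a2 and Col3a1 over this marker sum was 18.3 ± 4.34 in peritoneal tumour cells and 8.80 ± 0.583 in liver tumour cells (SD, n = 4). The liver marker sum includes Pdgfra, which in liver tumour cells was at a median of 7.78% of the stroma level of the same mouse. There Dcn, Lum, Pdgfrb and Thy1 were at 0.848%, 1.02%, 0.865% and 0.840%, and in the peritoneum Pdgfra was at 0.549%. The ratio without Pdgfra was not computed, and the part of the fibroblast markers in the result was not tested.

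**Figure D5:**
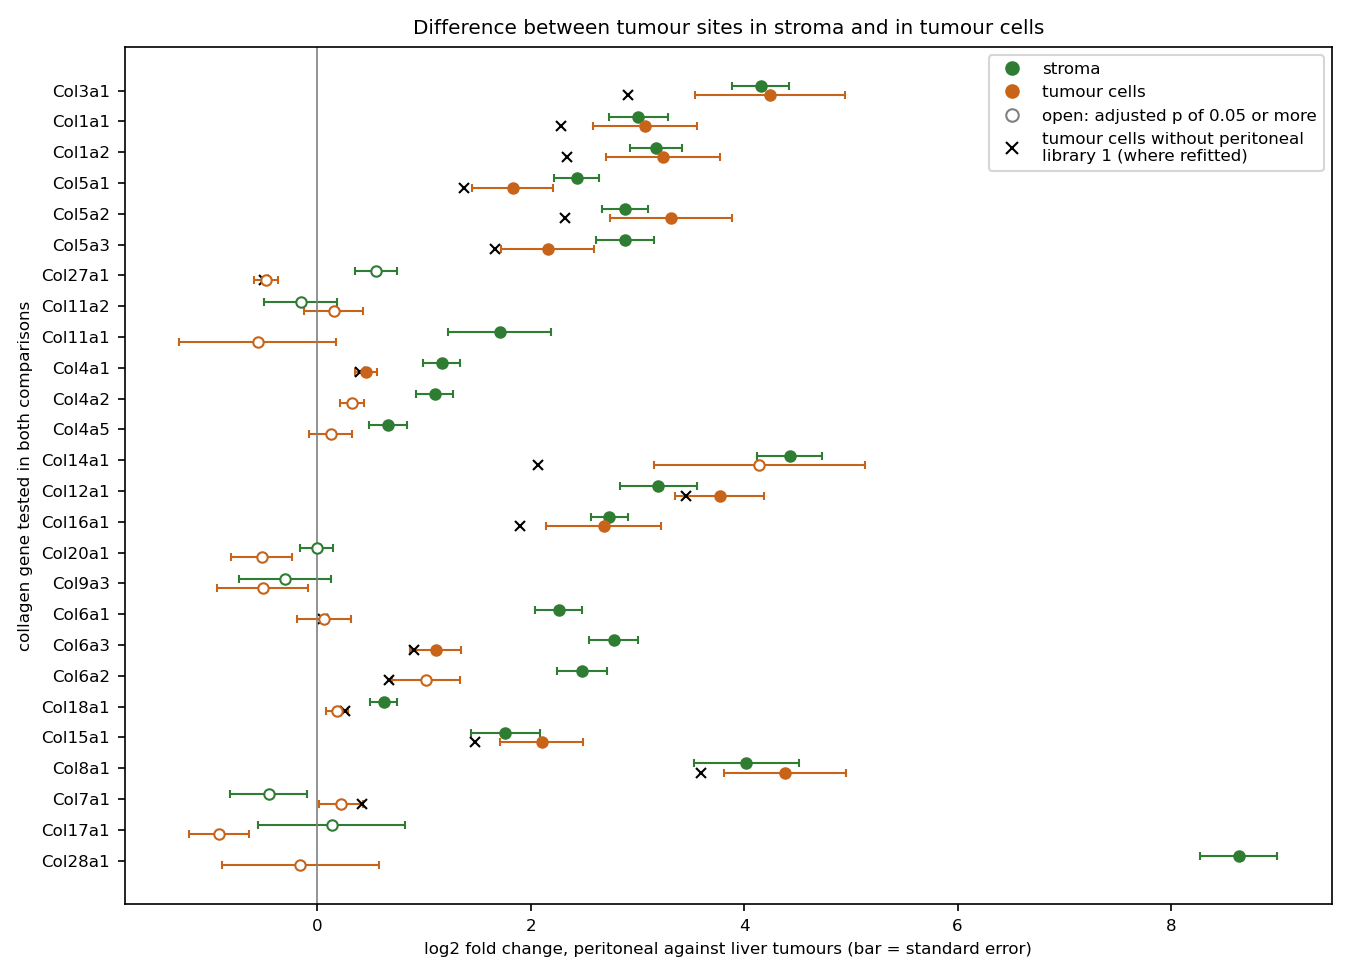
The points give the log2 fold change of peritoneal against liver tumours (bars are the standard error) of the 26 collagen genes tested in both compartments, in green for stroma and orange for tumour cells, filled where called, and crosses give the tumour cell value without the peritoneal library of mouse 1 where it was refitted. For Col3a1, Col1a1 and Col1a2 both compartments lie near the same value with all libraries and apart without that library, and for Col6a1 the stroma is at 2.26 and the tumour cells at 0.06.

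Whether the site difference itself differed between stroma and tumour cells was tested as an interaction over the 16 sorted libraries. It was called for 7 of 37 collagen genes, 6 with a larger rise in stroma, against 14.3% of all genes tested (6.79% higher and 7.50% lower in stroma), and the median over all genes was -0.12. Among the 6 type VI chains 3 were called, with a difference of log2 fold changes of 2.12 ± 0.38 (SE, edgeR's adjusted p = 0.00158) for Col6a1, 1.59 ± 0.35 (adjusted p = 0.00733) for Col6a3 and 1.39 ± 0.43 (adjusted p = 0.0427, 0.0509 with the mouse as a block) for Col6a2. Col6a1 was 87.04 CPM in peritoneal and 83.9 CPM in liver tumour cells on average and 1741 and 374 CPM in stroma, so its rise was in stroma. The others were Col28a1 (8.79 ± 0.93), Col27a1 (0.95 ± 0.25) and Col4a2 (0.69 ± 0.21), with Col13a1 the other way (-2.81 ± 0.90, edgeR's adjusted p = 0.0492, 0.0506 with the mouse as a block and 0.154 without the peritoneal tumour cells of mouse 1). 3 of these calls were lost when any 1 of many libraries was left out. That of Col6a2 was lost (edgeR's adjusted p = 0.0585 to 0.0859) without any 1 of 10 libraries, which were the liver tumour cells of mice 2, 3 and 4, the peritoneal tumour cells of mice 2 and 4, the liver stroma of mice 2, 3 and 4 and the peritoneal stroma of mice 2 and 3. That of Col4a2 was lost (edgeR's adjusted p = 0.0529 to 0.0906) without the liver tumour cells of mouse 1, 2 or 4, the peritoneal tumour cells of mouse 2, 3 or 4, the liver stroma of mouse 3 or 4 or the peritoneal stroma of mouse 2 or 3. That of Col13a1 was lost (edgeR's adjusted p = 0.0563 to 0.154) without any 1 library other than the peritoneal tumour cells of mouse 2, 3 or 4. For Col1a1, Col1a2 and Col3a1 the interaction was -0.13 ± 0.58, -0.13 ± 0.61 and -0.15 ± 0.75 and not called. Without the peritoneal tumour cells of mouse 1 it turned to 0.73, 0.85 and 1.26, and that of Col3a1 was then called (adjusted p = 0.0187).

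Since chains assemble in fixed combinations, the ratios of chains were compared per kilobase of transcript. Col1a1 over Col1a2, whose protein trimer holds a pair of the first chain and 1 of the second, was 1.67 ± 0.126 in liver stroma, 1.49 ± 0.0672 in peritoneal stroma, 1.73 ± 0.0366 in liver tumour cells and 1.61 ± 0.108 in peritoneal tumour cells (SD, n = 4 each). Col4a1 over Col4a2, which share a start region and the same protein proportion, lay between 1.13 and 1.84 in all 25 libraries, although the level of Col4a1 ran from 253 to 2099 CPM. The levels of these chains varied far more than their ratios did.

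Other ratios varied more. Col6a1 over Col6a2 was 1.16 ± 0.0270 in liver stroma and 0.998 ± 0.0193 in peritoneal stroma, but 4.43 ± 0.303 in liver tumour cells and 2.49 ± 0.756 in peritoneal tumour cells (SD, n = 4 each), with no overlap between stroma and tumour cells. Col6a3 over Col6a1 was 0.338 ± 0.0464 and 0.480 ± 0.0412 in stroma and 0.132 ± 0.00535 and 0.295 ± 0.109 in tumour cells of liver and peritoneum. Col5a1 over Col5a2 was 1.33 ± 0.101 and 0.967 ± 0.118 in stroma of liver and peritoneum, 3.46 ± 0.448 in liver tumour cells and 1.57 ± 0.815 in peritoneal tumour cells. Col3a1 over Col1a1 was 0.664 ± 0.0966 in liver stroma and 1.51 ± 0.322 in peritoneal stroma, with no overlap between the 4 libraries of each site. Col4a5 over Col4a6 was 4.08 ± 1.21 in liver and 7.58 ± 2.54 in peritoneal stroma. These ratios were not tested, and reads that the counting could assign to either of 2 genes would bear on them.

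Genes that make, bind and cut collagen were read from lists of 30 biosynthesis and processing genes, 10 receptors and 9 breakdown genes found in the table. In RasLOW against BMEL WT cells the edgeR test called 0 higher and 2 lower of 24 biosynthesis genes, 0 higher and 0 lower of 5 receptors and 1 higher and 1 lower of 3 breakdown genes, where it called 5.96% of all genes tested (1.92% higher and 4.05% lower). P3h2, a prolyl 3-hydroxylase active on type IV chains (log2 fold change -1.65 ± 0.27, SE), and Plod2, a lysyl hydroxylase (-1.37 ± 0.19), were lower, as was Mmp2, a gelatinase that cuts type IV (-2.43 ± 0.44), while the collagenase Mmp13 was higher (2.15 ± 0.39). In RasHIGH the counts were 2 higher and 6 lower of 24 biosynthesis genes, 2 higher and 1 lower of 5 receptors and 1 higher and 1 lower of 3 breakdown genes, against 22.6% of all genes tested (10.9% higher and 11.7% lower). Mmp2 (-3.86 ± 0.22), the prolyl 4-hydroxylase subunit P4ha3 (-3.73 ± 0.94) and P3h2 (-3.23 ± 0.67) were lower, and Mmp13 (4.66 ± 0.91), the procollagen protease enhancer Pcolce2 (1.45 ± 0.42) and Itga1, an integrin chain that binds type IV (1.06 ± 0.22), were higher. Between RasHIGH and RasLOW none of the 32 genes tested was called by the edgeR test.

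In peritoneal against liver stroma 27 higher and 0 lower of 29 biosynthesis genes, 5 higher and 3 lower of 9 receptors and 4 higher and 1 lower of 7 breakdown genes were called, against 33.4% of all genes tested (18.5% higher and 14.9% lower). P4ha3 (5.24 ± 0.30), the collagen-degrading cathepsin Ctsk (4.11 ± 0.28) and Mmp2 (4.03 ± 0.26) rose most, and Mmp9, a gelatinase of leukocytes (-1.04 ± 0.29), the integrin chain Itga2 (-0.85 ± 0.18) and Lair1, an inhibitory collagen receptor of leukocytes (-0.72 ± 0.17), fell (log2 fold changes ± SE). In peritoneal against liver tumour cells it was 6 higher and 2 lower of 28, 2 higher and 0 lower of 8 and 2 higher and 0 lower of 6, against 3.20% of all genes tested (1.87% higher and 1.33% lower), led by the fibroblast protease Fap (4.58 ± 0.81) and the cross-linking oxidases Loxl1 (3.97 ± 0.67) and Lox (3.61 ± 0.66), with Plod2 (-0.87 ± 0.14) and P4ha2 (-0.81 ± 0.14) lower. In peritoneal tumour cells Fap, Loxl1 and Lox were at a median of 1.46%, 0.507% and 0.473% of the stroma level of the same mouse. The median over the fibroblast markers was 0.459%, and the part of stromal cells left in the sort was not tested. Pathway genes were not read from the fits with the mouse as a block or without 1 library.

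Between stroma and tumour cells the edgeR test called 77.8% of all genes tested (39.4% higher and 38.4% lower) in the liver and 76.6% of all genes tested (37.1% higher and 39.5% lower) in the peritoneum. Of the biosynthesis genes 14 higher and 10 lower of 29 were called in the liver, a share near that of all genes, and 25 higher and 1 lower of 29 in the peritoneum. The receptors gave 6 higher and 3 lower of 9 in the liver and 6 higher and 3 lower of 9 in the peritoneum, and the breakdown genes 7 higher and 0 lower of 7 and 7 higher and 0 lower of 7. In the liver the largest differences towards stroma were those of Mmp8 (10.36 ± 0.35), Mmp9 (7.81 ± 0.36) and Lair1 (7.79 ± 0.18), and towards tumour cells those of Itga2 (-2.72 ± 0.11), P3h4 (-1.98 ± 0.13) and the collagen receptor kinase Ddr1 (-1.82 ± 0.15). Mmp8, a collagenase of neutrophils, had at most 2 counts in any liver tumour cell library. In the peritoneum they were those of the procollagen N-proteinase Adamts3 (7.28 ± 0.71), Lair1 (6.93 ± 0.50) and Mmp8 (6.71 ± 1.24), and of Itga2 (-3.64 ± 0.21), Ddr1 (-2.63 ± 0.10) and P3h4 (-1.14 ± 0.14). The interaction was called for 19 higher and 0 lower of 29 biosynthesis genes, 1 higher and 2 lower of 9 receptors and 1 higher and 0 lower of 7 breakdown genes, against 14.3% of all genes tested (6.79% higher and 7.50% lower), with the differences of log2 fold changes of P4ha3 (3.36 ± 0.54), Pcolce (2.42 ± 0.30) and Tll1 (2.36 ± 0.52) highest and Itga2 (-0.87 ± 0.22) and Ddr1 (-0.76 ± 0.19) lowest. Most biosynthesis genes tested thus rose more between the sites in stroma than in tumour cells.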

How the data were processed

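RNA libraries from 9 cultures and 16 sorted tumour fractions were made by the authors with the NuGEN Universal Plus mRNAseq kit and read on a HiSeq 2500. Per the study's methods reads were aligned to mm9 with TopHat2, while the labels' processing notes list FastQC, Bowtie 0.12.2, mm8 and mm10. The counting program, strand setting and annotation are not given in the sources used here, so overlapping and antisense genes cannot be told apart. The authors deposited raw counts of 24984 genes in 25 libraries, all columns of which could be mapped to a sample. Totals per library ran from 20819000 to 51241300.

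Each of the 8 comparisons was fitted over the whole table with only its own libraries in edgeR 4.0.16 (limma 3.58.1, R 4.3.3), after filterByExpr at a minimum count of 10 and TMM scaling (factors 0.882 to 1.12), with the quasi-likelihood test and Benjamini-Hochberg adjustment. The filter admits a gene with enough counts in 1 group only, and a gene near 0 in the other group can differ only towards the group that admitted it. An adjusted p under 0.05 is a call. Levels are CPM scaled by TMM over all libraries. Alternatives were DESeq2 1.42.0, RLE scaling, no filter, a fit of all libraries, the study's thresholds (absolute log2 fold change over 1.5 and p under 0.01 in cultures, over 1 and 0.05 in tumours), the culture or mouse number as a block, and 66 fits that left out 1 library each. On simulated counts the fits recovered, of genes changed by a log2 fold change of 2, 80.0% for RasLOW against BMEL WT (12286 genes), 91.5% for the sites in tumour cells (13030 genes) and 93.5% for the sites in stroma (14773 genes). Tables were joined in Python 3.11.15 with pandas 2.3.3.

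The labels give the mouse of each tumour, so same-numbered sorted libraries are from the same animal. Deviations of same-numbered libraries from their group means correlated on average at 0.20 between stroma of the 2 sites, -0.04 between tumour cells of the 2 sites, and 0.23 and 0.20 between stroma and tumour cells of liver and peritoneum. The cultures share only a number. The methods call the samples independent biological samples.

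The members and all lists (collagen classes, biosynthesis, receptors, breakdown, cell type markers) were chosen with earlier results of these data known. Named with every library's value were the 12 members with the highest group mean and, per comparison, up to 4 called members each way by log2 fold change, and of the pathway lists up to 3 called genes each way. Values of other members named were chosen after they were seen.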

Additional observations from a re-analysis of the deposited data

Results flagged for a closer look

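In each group of 4 libraries the highest and lowest value of every collagen gene with a mean of at least 1 CPM was set against Dixon's critical value at the 95% level. Of 113 groups tested, 17 held a library that stood apart, where chance gives about 1 in 20. The peritoneal tumour cells of mouse 1 were the highest of their group for 8 of these genes, Col3a1 (650.5 CPM), Col1a1 (451), Col1a2 (278), Col5a2 (69.2), Col15a1 (40.2), Col14a1 (25.7), Col8a1 (16.9) and Col16a1 (6.40). In the same library the leukocyte markers summed to 172 CPM, against 20.1 to 28.03 in the other 3, and the fibroblast markers to 105 against 11.7 to 16.5. Their part in the result was not tested.

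In the peritoneal stroma of mouse 1, Col12a1 (486 CPM) and Col20a1 (8.70) were low, and Col2a1, the fibrillar collagen of cartilage (12.4), was high. Col2a1 was at 0 to 0.104 CPM in the other 3 libraries of that group, and the cartilage collagens Col9a1 and Col9a2 were at 1.27 and 1.01 CPM in the same library. The other libraries that stood apart were the peritoneal stroma of mouse 3 for Col8a2 (35.9 CPM), the peritoneal tumour cells of mouse 4 for Col4a5 (77.4), the liver stroma of mouse 1 for Col6a5 (9.24) and of mouse 4 for Col16a1 (28.05), and the liver tumour cells of mouse 1 for Col6a1 (60.7) and Col6a3 (16.97).

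The interaction test called 7 of 37 collagen genes, beside 14.3% of all genes tested. The difference between sites was unlike in stroma and tumour cells by 8.79 for Col28a1, 2.12 for Col6a1, 1.59 for Col6a3, 1.39 for Col6a2, 0.95 for Col27a1, 0.69 for Col4a2 and -2.81 for Col13a1 (stroma minus tumour cells, log2). The first 6 rose more, or fell less, in stroma. The calls of Col6a2, Col4a2 and Col13a1 were lost without any 1 of 10, 10 and 13 libraries. Those of Col6a2 and Col13a1 were also lost with the mouse as a block.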

How the results depend on the processing

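Counts of called collagen genes depended on the fit in 4 comparisons. RasLOW against BMEL WT gave 6 calls with the edgeR test, 15 with DESeq2 and 12 in a fit of all libraries, and from 2 to 17 when 1 library was left out (2 without BMEL WT library 2 or 3, 3 without RasLOW library 3, 17 without RasLOW library 2). RasHIGH against RasLOW gave 0 calls, 4 with DESeq2, 1 without the filter on low counts, 3 in a fit of all libraries, 3 by the study's thresholds and 0 to 0 with 1 library left out. Peritoneal against liver tumour cells gave 12, 2 with the mouse as a block and 2 to 13 with 1 library left out, and the interaction 7, 4 in a fit of all libraries and 4 to 10 with 1 left out (4 without the liver tumour cells of mouse 2 or 4, the liver stroma of mouse 4 or the peritoneal stroma of mouse 2 or 3). With 1 library left out the counts were 10 to 16 in RasHIGH against BMEL WT, 25 to 27 between the stroma of both sites, and 34 to 34 and 33 to 36 between stroma and tumour cells of liver and peritoneum. The cause of these shifts was not tested.

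Blocked by replicate number, the counts were 5 and 14 for RasLOW and RasHIGH against BMEL WT, 0 between them, 2 and 27 between the sites in tumour cells and stroma, 34 and 35 between stroma and tumour cells, and 7 for the interaction. Cultures share only a number, with mean correlations of -0.13, 0.06 and -0.30, and the block lost Col5a1 in RasLOW. With the mouse as a block the interaction lost Col13a1 and Col6a2 and gained Col11a1 and Col4a1, and the uncalled interactions of Col1a1, Col1a2 and Col3a1 turned to 0.17, 0.19 and 0.36. With 1 library left out they ran from -0.39 to 0.73, -0.40 to 0.85 and -0.45 to 1.26, that of Col5a2 from -0.76 to 0.57, and the uncalled tumour site difference of Col6a1 from -0.084 to 0.29. Log2 fold changes of single genes were followed for those called by the edgeR test and for some uncalled ones named in the text. Across alternatives other than leaving out a library, 705 of these values kept their side of the threshold, 17 gained and 26 lost a call and 3 turned. Calls gained by other collagen genes are not in these numbers, so gains and losses cannot be set against each other.

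Over all genes tested, RasLOW against BMEL WT gave 734 calls, 1640 with DESeq2, 2440 in a fit of all libraries and 295 with the block. RasHIGH against BMEL WT gave 2789, 4347 in a fit of all libraries and 1190 by the study's thresholds, and RasHIGH against RasLOW 9, with 414 by DESeq2, 77 without the filter, 917 in a fit of all libraries, 253 by the study's thresholds and 0 with the block. The tumour sites gave 419, with 1239 by DESeq2 and 102 with the block, and the interaction 2191, with 1180 in a fit of all libraries. By the study's thresholds the stroma sites gave 2107 in place of 4926, and stroma against tumour cells 6437 in place of 11376 in the liver and 6377 in place of 11168 in the peritoneum.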
